A study of Mus musculus with 13 samples.

Results

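Fgf23 and 6 other genes of osteocyte phosphate control were examined on 13 arrays of mouse bone marrow RNA. The genes were Fgf23, Galnt3, Fam20c, Dmp1, Phex, Mepe and Sost, taken by name, and each was read by the 1 probe set annotated to it alone. These are 7 of 19938 genes measured, and all 7 were found. Fgf23 was selected on its array levels, which earlier results of these data showed to be higher after phlebotomy, so its differences are given as a description with no test. The other 6 were named for their known roles in bone and were read from 1 fit to all genes.

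All mice were male C57BL/6, 6 weeks old and on standard chow, with no transgene or other agent named in the labels. Controls at baseline gave 3 samples. The other mice lost 500 µL of blood from the retro-orbital sinus, and their femurs gave 1 sample at 4 h, 3 at 9 h, and 2 each at 12 h, 15 h and 48 h. Each sample of total marrow RNA had its own array, of the Affymetrix Mouse Gene 1.0 ST type. Whether samples of a group came from separate animals is not stated, and a p-value here reflects only how far these samples spread, which could be a technical spread. They give no sham puncture for the controls, no hour of collection, and no account of how marrow was separated from bone.

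FGF23 is a hormone made mainly by osteocytes, the cells embedded in bone matrix. It acts on the kidney through FGF receptors and the co-receptor Klotho to lower blood phosphate and active vitamin D. In mice, blood loss, erythropoietin and low iron are known to raise Fgf23 transcripts in bone and marrow. GALNT3 adds sugars that protect the hormone from cleavage, and FAM20C phosphorylates it so that it is cleaved more readily. DMP1 is a matrix protein, and PHEX an endopeptidase, whose loss raises FGF23. MEPE is a matrix protein of the same family as DMP1, and SOST encodes sclerostin, an osteocyte inhibitor of WNT signalling.

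The upstream sequences of Fgf23, Dmp1 and Phex are shown because the levels of these 3 genes varied most across the arrays, Fgf23 in a different order from the others. Each is the 250 bases before the RefSeq gene start in GRCm38.p6, 5′ to 3′ on the gene's strand. The windows are chr6:127072652-127072901 (plus strand) for Fgf23, chr5:104197325-104197574 (plus strand, the first of 2 starts listed) for Dmp1 and chrX:157415287-157415536 (minus strand) for Phex. Capitals mark matches, on either strand, to the letters ACGTG (the core read by hypoxia-inducible factors), its variant GCGTG, TTCNNNGAA (read by STAT factors), AGATAA (read by the GATA family), AAAGGTCA (read by NR4A receptors) and TATAAA (read by the general factor TBP).
Fgf23: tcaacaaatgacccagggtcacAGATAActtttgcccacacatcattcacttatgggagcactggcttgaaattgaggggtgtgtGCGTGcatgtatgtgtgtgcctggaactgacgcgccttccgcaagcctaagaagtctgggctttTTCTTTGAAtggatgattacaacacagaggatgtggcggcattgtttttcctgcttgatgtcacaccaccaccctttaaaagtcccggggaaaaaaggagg
Dmp1: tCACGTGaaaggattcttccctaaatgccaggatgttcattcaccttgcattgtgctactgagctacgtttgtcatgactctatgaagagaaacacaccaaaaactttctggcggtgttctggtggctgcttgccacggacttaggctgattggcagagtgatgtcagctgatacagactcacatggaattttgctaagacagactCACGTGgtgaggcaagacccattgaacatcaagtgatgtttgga
Phex: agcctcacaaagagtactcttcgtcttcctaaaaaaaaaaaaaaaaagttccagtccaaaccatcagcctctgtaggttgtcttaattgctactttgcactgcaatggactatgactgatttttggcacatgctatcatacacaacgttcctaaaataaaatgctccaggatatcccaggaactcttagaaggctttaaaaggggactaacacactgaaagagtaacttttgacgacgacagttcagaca

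The Fgf23 window held AGATAA beginning 228 bases before the start, GCGTG at 165 and TTCTTTGAA, a match to TTCNNNGAA, at 101. Of 32851 windows of the same length, 9.99% held AGATAA, 28.2% held GCGTG and 7.02% held TTCNNNGAA on either strand. The Dmp1 window held the palindrome CACGTG, which matches ACGTG on both strands, at 2 places, and ACGTG was in 16.6% of windows. The window of the second Dmp1 start, chr5:104202367-104202616, held none of the 6 motifs. The Phex window held none of the 6 motifs. AAAGGTCA was in 1.34% of windows and in none of the 3 shown, and TATAAA in 12.4% and in none of the 3. These matches describe letters in a window and are not sites of binding.

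The authors' RMA values are on the log2 scale, so 1 unit is a 2-fold difference. By title number the samples form 2 series. The larger has 10 arrays, and the smaller has 3, namely 1 control (replicate 3) and 2 of the 9 h samples (replicates 1 and 2). The median over all genes lay between 7.30 and 7.40 in the larger series and between 8.13 and 8.14 in the smaller, so levels are set side by side only within a series. In the smaller series 47.7% of genes had the same value on all 3 arrays. Galnt3 and Sost were among these, while Fam20c and Mepe had 2 distinct values there. For these 4 genes the smaller series therefore carries little information on 9 h, while Fgf23, Dmp1 and Phex had 3 distinct values. The tied values still entered the fit, and their part in its standard errors and p was not tested. At 9 h Sost differed from control by −0.09 in the larger series, 0 in the smaller and −0.05 in the fit. The fit was limma with 6 groups and a term for the series, and p was adjusted by the Benjamini-Hochberg method over 19938 genes, with 0.05 as the threshold. The single 4 h array was taken to vary like the other groups.

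Fgf23 stood above every control of its series on 10 of 10 arrays taken after phlebotomy. In the larger series the log2 level was 7.48 and 6.98 in the controls, 8.78 at 4 h, 9.18 at 9 h, 8.06 and 8.60 at 12 h, 8.97 and 8.78 at 15 h, and 9.05 and 8.28 at 48 h. In the smaller series it was 9.65 and 9.78 on the 9 h arrays, against 8.35 in the control. The lowest array after phlebotomy in the larger series, 12 h replicate 1, was still above the higher control. Over all genes, 1.87% were above every control of their series on all 10 arrays and 0.446% were below. Since Fgf23 was chosen for being higher, nothing is read from that share.

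**Figure D1:**
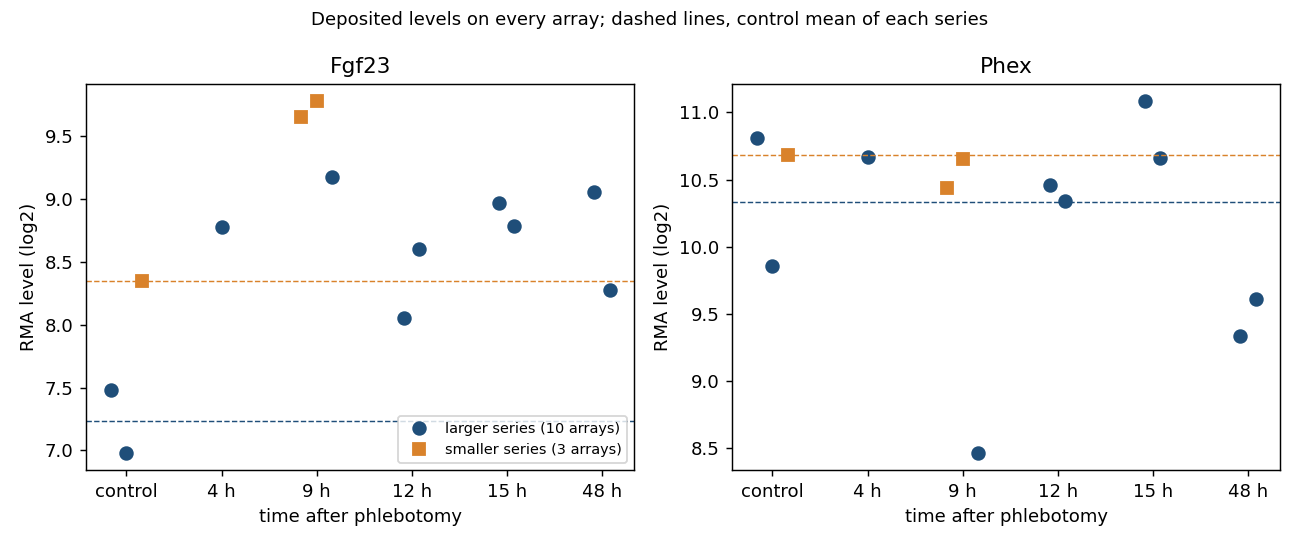
Deposited log2 levels of Fgf23 (left) and Phex (right) on each of the 13 arrays by time after phlebotomy, with circles for the larger series, squares for the smaller and dashed lines for the control mean of each series. Fgf23 lies above the controls of its series on all 10 later arrays, while Phex is lowest at 9 h replicate 3 (8.47) and low at 48 h (9.34 and 9.61).

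Relative to control the fitted log2 difference of Fgf23 was 1.45 ± 0.32 (SE) at 4 h or 2.73-fold, in 1 array against 3. It was 1.66 ± 0.23 at 9 h or 3.15-fold, 1.00 ± 0.26 at 12 h or 2.0-fold, 1.54 ± 0.26 at 15 h or 2.92-fold, and 1.34 ± 0.26 at 48 h or 2.53-fold. The mean of 9, 12 and 15 h stood 1.40 ± 0.19 above control, or 2.64-fold. At 9 h the 2 series gave 1.95 (1 array against 2) and 1.37 (2 arrays against 1). Both 48 h arrays were still above both controls, and the difference of 48 h from the mean of 9, 12 and 15 h was −0.06 ± 0.22. That last value rested on single arrays, being −0.45 without 48 h replicate 1 and 0.32 without 48 h replicate 2.

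In falling order of the fitted difference the times ran 9 h, 15 h, 4 h, 48 h and 12 h, with control last. Among the times after phlebotomy no pair next to each other in this falling order differed by more than 2 standard errors. The difference was −0.11 ± 0.29 for 15 h minus 9 h, 0.10 ± 0.33 for 15 h minus 4 h, and −0.11 ± 0.33 for 48 h minus 4 h. For 48 h minus 12 h it was 0.34 ± 0.27. In order of time, 12 h lay below both 9 h and 15 h. The difference was −0.65 ± 0.29 for 12 h minus 9 h (95% interval −1.29 to −0.02). For 15 h minus 12 h it was 0.54 ± 0.27, with a 95% interval that held 0 (−0.05 to 1.13). The 12 h level depended on single arrays. Its difference from control was 1.28 without 12 h replicate 1 and 0.73 without 12 h replicate 2. The arrays of a group spread by an SD of 0.35 in the 2 controls of the larger series, 0.39 at 12 h, 0.13 at 15 h and 0.55 at 48 h.

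Galnt3 and Fam20c act on the FGF23 protein. Galnt3 was 8.46 and 7.87 in the controls of the larger series, 8.57 at 4 h, 8.11 at 9 h, 8.42 and 8.23 at 12 h, 8.33 and 8.19 at 15 h, and 7.78 and 8.06 at 48 h. The controls spanned nearly all the later arrays, with 4 h above both and 48 h replicate 1 below both. The fitted differences from control ran from −0.24 ± 0.16 at 48 h (adjusted p = 0.537) to 0.42 ± 0.20 at 4 h (adjusted p = 0.346).

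Fam20c was 7.76 and 7.26 in the controls of the larger series, 7.97 at 4 h, 7.15 at 9 h, 7.69 and 7.79 at 12 h, 7.86 and 7.97 at 15 h, and 7.39 and 7.58 at 48 h. The 4 h and 15 h arrays and 12 h replicate 2 were above both controls, and the 9 h array was below both. The difference was 0.50 ± 0.17 at 4 h (adjusted p = 0.192) and 0.44 ± 0.14 at 15 h (adjusted p = 0.251). At 9 h it was −0.25 ± 0.12 (adjusted p = 0.810). Without control replicate 1 it passed at 4 h, 12 h and 15 h, with 0.71 ± 0.11, 0.48 ± 0.09 and 0.64 ± 0.09 (limma adjusted p = 0.00611, 0.0388 and 0.0159).

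Loss of Dmp1 or of Phex raises FGF23. Dmp1 was 7.58 and 7.32 in the controls of the larger series, 8.25 at 4 h, 6.63 at 9 h, 7.75 and 7.41 at 12 h, 8.20 and 8.59 at 15 h, and 7.30 and 7.21 at 48 h. The 4 h and 15 h arrays and 12 h replicate 1 lay above both controls, and the 9 h and 48 h arrays below both. On the 9 h arrays of the smaller series Dmp1 was 8.11 and 8.32, against 8.22 in the control, so there it lay on both sides of the control. The fitted difference was 1.08 ± 0.20 at 15 h or 2.12-fold (adjusted p = 0.0732), 0.93 ± 0.25 at 4 h or 1.91-fold (adjusted p = 0.104), and −0.41 ± 0.18 at 9 h (adjusted p = 0.806). Of the other 6 genes Dmp1 had the smallest adjusted p at both 4 h and 15 h, without passing. It passed at both times without control replicate 1 (1.12 ± 0.24 at 4 h and 1.27 ± 0.21 at 15 h; limma adjusted p = 0.0260 and 0.0204) and with the series as a random block (adjusted p = 0.0468 and 0.0181).

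Phex was 10.81 and 9.85 in the controls of the larger series, 10.67 at 4 h, 8.47 at 9 h, 10.46 and 10.34 at 12 h, 11.08 and 10.66 at 15 h, and 9.34 and 9.61 at 48 h. Its controls differed by almost 1 unit, the 9 h and 48 h arrays were below both, and of the rest only 15 h replicate 1 was above both. In the smaller series the 9 h arrays had 10.44 and 10.65, against 10.68 in the control. The fitted differences were −1.0 ± 0.34 at 9 h (adjusted p = 0.732), 0.83 ± 0.38 at 15 h (adjusted p = 0.404) and −0.57 ± 0.38 at 48 h (adjusted p = 0.538). The value at 9 h was −1.87 within the larger series, with 1 array, and −0.13 within the smaller. At 15 h Phex passed without control replicate 1, at 1.38 ± 0.28 (limma adjusted p = 0.0403).

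**Figure D2:**
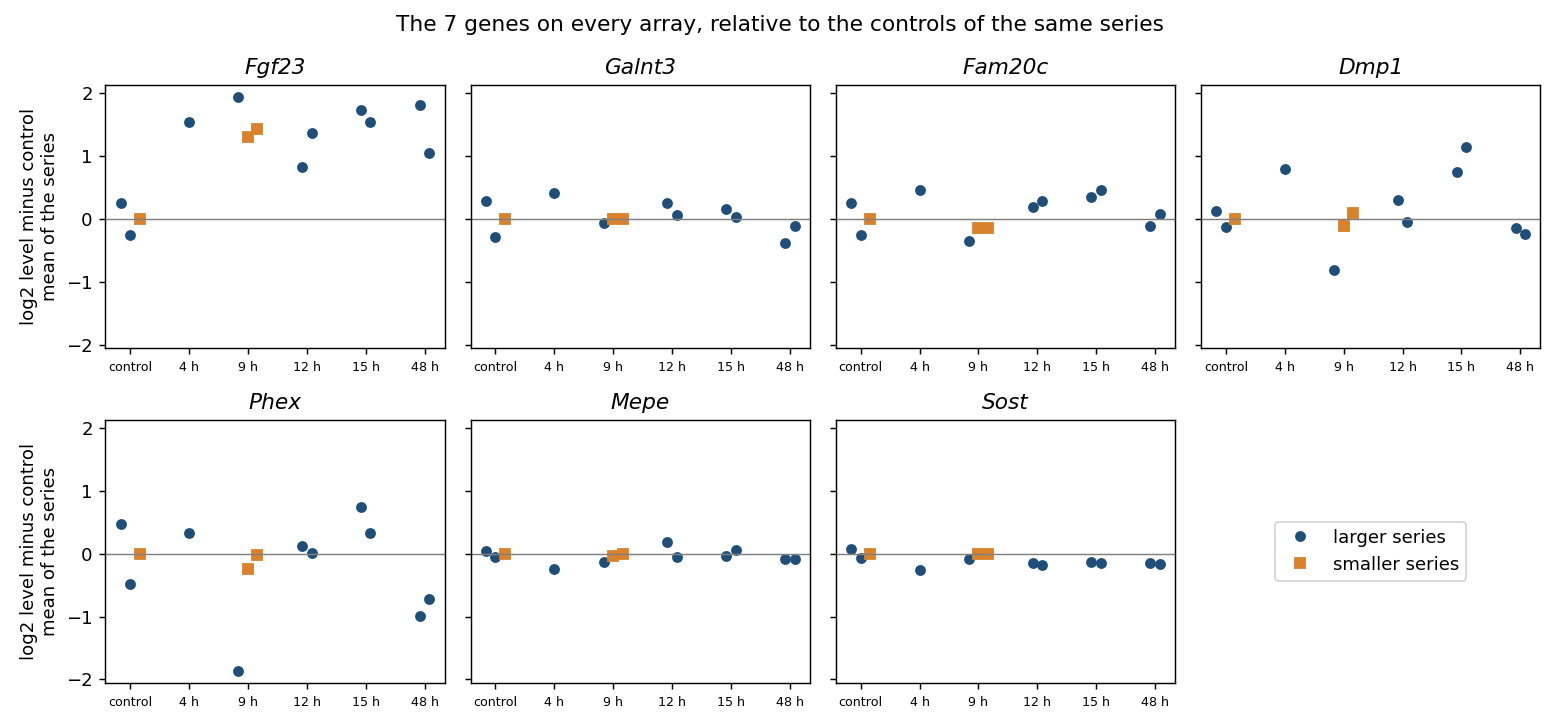
Each panel gives 1 gene on all 13 arrays as the log2 level minus the control mean of the same series, on 1 shared vertical axis, by time after phlebotomy, with circles for the larger and squares for the smaller series. Fgf23, selected for being higher, has all 10 later arrays above its controls. Dmp1 and Phex move to both sides of 0, and Mepe and Sost stay close to 0.

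Mepe and Sost varied least. Mepe was 5.20 and 5.11 in the controls of the larger series, 4.92 at 4 h, 5.02 at 9 h, 5.34 and 5.11 at 12 h, 5.12 and 5.22 at 15 h, and 5.08 and 5.07 at 48 h. Its later arrays lay on both sides of the controls. Sost was 7.24 and 7.09 in the controls, 6.91 at 4 h, 7.08 at 9 h, 7.03 and 6.98 at 12 h, 7.04 and 7.01 at 15 h, and 7.03 and 7.0 at 48 h. All 8 later arrays of the larger series were below both controls for Sost, by small amounts. The Sost differences ran from −0.24 ± 0.09 at 4 h (adjusted p = 0.238) to −0.05 ± 0.07 at 9 h (adjusted p = 0.926), and those of Mepe from −0.22 ± 0.11 at 4 h (adjusted p = 0.370) to 0.08 ± 0.09 at 12 h (adjusted p = 0.705). The deposited values carry no detection call, so it is not known whether either transcript was above background, and the labelled tissue could not be checked by which transcripts were present. A filter on dim genes, used as an alternative, kept 5 of the 7 genes and left out these 2.

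Counted together, 0 of the other 6 genes passed in limma at any time against control. Over all genes the share past the threshold was 1.99% at 4 h, 0.0953% at 9 h, 0.105% at 12 h, 0.256% at 15 h and 0.376% at 48 h. At an unadjusted p under 0.05 the counts among the 6 were 3 at 4 h, 2 at 9 h, 0 at 12 h, 2 at 15 h and 0 at 48 h. The share of all genes at that unadjusted threshold is not given here, so nothing is read from these counts. The median difference of the 6 was 0.46 at 4 h, −0.16 at 9 h, 0.22 at 12 h, 0.27 at 15 h and −0.10 at 48 h, so it changed sign between times. The median over all genes was between −0.01 and 0.01 at each of these times. For the 3 middle times averaged (9, 12 and 15 h), 0 of the 6 passed the adjusted threshold, against 0.787% of all genes. For 48 h against that mean 0 of the 6 passed it, against 0.978% of all genes. The counts at an unadjusted p under 0.05 were 0 and 1, again with no share of all genes to set beside them.

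Without control replicate 1 the count among the 6 was 3 at 4 h, 1 at 12 h and 3 at 15 h. In that fit 1359, 414 and 505 of all genes passed at these times, against 397, 21 and 51 with every array. The rise in calls was thus not particular to the 6. With array weights the count among the 6 was 3 at 4 h. The number of all genes passing in that fit alone is not given here, so nothing is read from this count. Under the settings other than leaving out 1 array, 44 to 1852 of all genes passed at 4 h. For the mean of 9, 12 and 15 h, the 95% intervals reached at most 0.34 for Galnt3, 0.38 for Fam20c, 0.64 for Dmp1, 0.67 for Phex, 0.15 for Mepe and 0.01 for Sost. At single times, the 95% interval of Dmp1 ran from 0.64 to 1.52 at 15 h and from 0.38 to 1.48 at 4 h. These intervals are not adjusted for the number of genes. Others that left out 0 were those of Fam20c at 4 h (0.13 to 0.88) and 15 h (0.14 to 0.74). Below 0 were Dmp1 (−0.81 to −0.01) and Phex (−1.76 to −0.24) at 9 h, and Sost (−0.44 to −0.04) at 4 h.

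**Figure D3:**
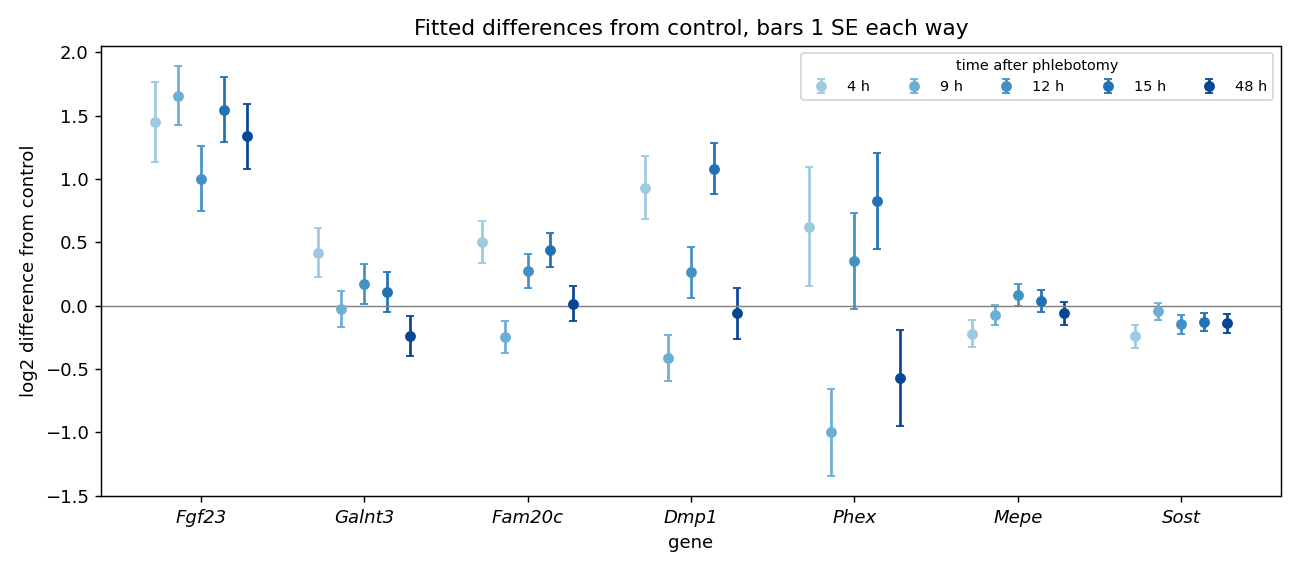
Points are fitted log2 differences from control for the 7 genes at 4, 9, 12, 15 and 48 h, and bars reach 1 standard error each way. Dmp1 and Phex have positive differences at 4, 12 and 15 h and negative ones at 9 and 48 h, while those of Mepe and Sost stay within 0.24 of 0; Fgf23, selected for being higher, is drawn for its values alone.

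Fgf23 and the other 6 genes are set side by side for single arrays. On 9 h replicate 3 it was 1.95 above the controls of its series, while the mean of the other 6 genes was −0.55, Phex was −1.87 and Dmp1 was −0.82. On 48 h replicate 1 it was 1.82 above, with the mean of the other 6 at −0.31. On the 15 h arrays it was 1.73 and 1.55 above, with the mean of the other 6 at 0.31 and 0.31. The gap between Fgf23 and the mean of the other 6 ran from 0.67 on 12 h replicate 1 to 2.50 on 9 h replicate 3. In the controls of the larger series this gap was 0.04 and −0.04, because the 2 controls differed in Fgf23 and in the other 6 by about as much. In bulk marrow RNA, a change in the number of cells of a type and a change in RNA per cell cannot be told apart.

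Markers of bone cells from 2 lists varied across the same arrays. For 12 other osteocyte markers the mean level relative to the series' controls ran from −0.61 to 0.02 at 9 h, 0.09 to 0.10 at 12 h, 0.21 to 0.29 at 15 h and −0.30 to −0.14 at 48 h, and it was 0.26 at 4 h. For 12 osteoblast and bone matrix genes, of 17 listed, it was 0.14 at 4 h, −1.09 to 0.04 at 9 h, 0.03 to 0.17 at 12 h, 0.24 to 0.25 at 15 h and −0.82 to −0.33 at 48 h. The 2 controls of the larger series themselves stood at 0.41 and −0.41 in the osteoblast list. In limma 0 of 12 genes of either list passed at any time. Without control replicate 1, 4 osteocyte markers passed at 4 h, 4 at 12 h and 6 at 15 h, and 3, 2 and 3 of the osteoblast genes. The medians at 15 h were then 0.72 and 0.82. In that fit 1359, 414 and 505 of all genes passed at these times, against 397, 21 and 51 with every array. It left the larger series with 1 control, replicate 2, which stood at −0.27 in the osteocyte list and −0.41 in the osteoblast list. With all arrays the list medians at 9 h were −0.28 for the osteocyte markers and −0.60 for the osteoblast genes, and at 15 h 0.44 and 0.42, against 0.01 and −0.01 for all genes. The 9 h medians rested on 1 array, replicate 3, without which the osteoblast median was −0.01. On 9 h replicates 1 and 2 the osteocyte mean was −0.06 and 0.02, and the osteoblast mean −0.07 and 0.04. Those arrays are of the smaller series, where 5 osteocyte markers and 2 osteoblast genes had 1 value throughout.

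**Figure D4:**
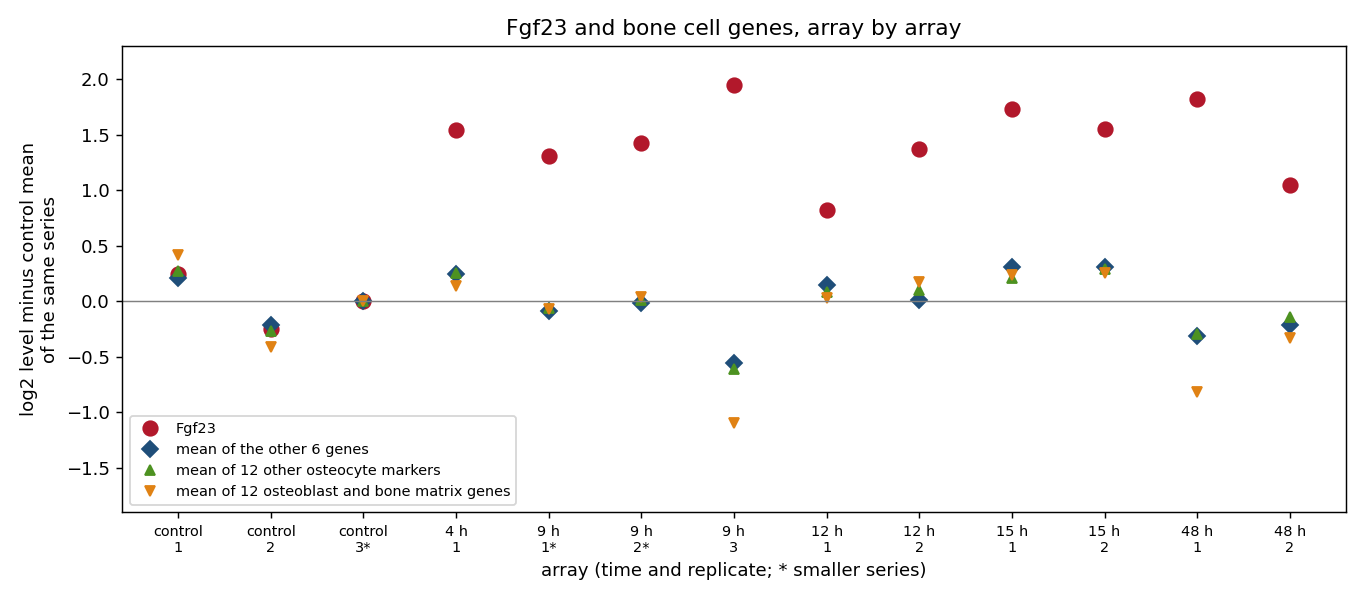
For each of the 13 arrays the log2 level minus the control mean of the same series is given for Fgf23, for the mean of the other 6 genes, for the mean of 12 other osteocyte markers and for the mean of 12 osteoblast and bone matrix genes. The 3 bone means move together and are lowest on 9 h replicate 3, where Fgf23 is highest (1.95).

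Within the 6, Fam20c, Dmp1 and Phex followed each other most closely, and Galnt3 followed them less closely. Over the 10 arrays of the larger series, with all genes of an array read from 1 RNA sample, Pearson's r was 0.87 for Fam20c and Dmp1, 0.87 for Fam20c and Phex, and 0.84 for Dmp1 and Phex (Spearman's rho 0.89, 0.81 and 0.84). Without the 2 arrays farthest from the median of the first gene of each pair, r was 0.83, 0.85 and 0.81. Over the 10 arrays Galnt3 had r of 0.72 with Fam20c, 0.66 with Phex and 0.52 with Dmp1 (rho 0.70, 0.78 and 0.66). Pairs within the 6 that held Mepe or Sost had r from −0.31 (Fam20c and Sost) to 0.41 (Mepe and Sost). Fgf23 had r between −0.54 (Sost) and 0.16 (Fam20c) with the 6, and between −0.54 (Mepe) and 0.25 (Sost) without its 2 farthest arrays. Those 2 arrays were the controls (7.48 and 6.98), so the second range covers only arrays taken after phlebotomy. All these correlations are descriptions over arrays of up to 6 groups and carry no test.

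Dmp1 and Mepe lie in a row of bone and tooth matrix genes on chromosome 5, in the order Dspp, Dmp1, Ibsp, Mepe and Spp1, by the RefSeq annotation. Spp1 (osteopontin) had no probe set of its own here. Ibsp, bone sialoprotein, and Dspp, a dentin matrix protein, were named for this position after their values had been seen. Ibsp differed from control by 0.43 ± 0.26 at 4 h (adjusted p = 0.480), −0.38 ± 0.19 at 9 h (adjusted p = 0.810), 0.41 ± 0.21 at 15 h (adjusted p = 0.445) and −0.40 ± 0.21 at 48 h (adjusted p = 0.419). Its signs were those of Dmp1 at these 4 times. Dspp differences lay between −0.02 ± 0.08 at 15 h (adjusted p = 0.928) and 0.15 ± 0.08 at 48 h (adjusted p = 0.417).

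Other genes of the FGF23 pathway were read from the same fit, in which at most 1.99% of all genes passed at any 1 time, so a count of 0 in a short list is near the background. Of 7 genes of FGF23 cleavage and modification, which include Galnt3, Fam20c and the convertase genes, 0 passed at any time, with medians of 0.42 at 4 h, −0.17 at 9 h, 0.17 at 12 h, 0.19 at 15 h and −0.09 at 48 h. Without control replicate 1, 3 of these 7 passed at 4 h, 1 at 12 h and 1 at 15 h. In that fit 1359, 414 and 505 of all genes passed at these times, against 397, 21 and 51 with every array. Of 6 FGF receptor and Klotho genes and of 10 genes that FGF receptors induce, 0 passed at any time, with medians between −0.09 and 0.20 and between −0.05 and 0.16. A count of 0 held too for 5 genes of vitamin D and parathyroid hormone and for 13 genes of reported FGF23 inducers, among them those of hypoxia, inflammation and erythropoietin signalling. Medians of the inducer list lay between −0.01 and 0.07. Without 1 array up to 2 genes in each of these 4 lists passed at a time. Of 9 genes of phosphate transport and mineralization, 1 rose at 4 h and 0 passed at the later times. That gene was Slc34a2, a sodium phosphate cotransporter of intestine and lung, with 2.39 ± 0.12 (adjusted p = 3.42e-07). Its level was 7.76 at 4 h, against 5.46 and 5.37 in the controls of the larger series.

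The 4 h array also held transcripts of gut. Of 14 small intestine markers 11 rose at 4 h in limma, with a mean of 3.02 above the controls. Reg3g, an antibacterial lectin of the gut lining, rose by 4.73 ± 0.13 (adjusted p = 8.43e-09), and Fabp2, the intestinal fatty acid binding protein, was 11.5 at 4 h, against 7.62 and 7.12 in the controls of the larger series. On the 9, 12, 15 and 48 h arrays the mean of this list was between −0.86 and −0.56 relative to the controls, with 3 of 14 falling at 9 h, 3 at 12 h, 4 at 15 h and 4 at 48 h. In a fit without 15 h replicate 1 the count at 15 h was 2, and without 15 h replicate 2 it was 1. Of 11 liver markers 3 rose at 4 h, none passed at 9, 12 or 15 h, and 7 rose at 48 h, with means of 1.53 and 1.11 on the 48 h arrays. Without 48 h replicate 1, 4 passed there, and with array weights none did. Alb, the albumin gene, was 11.7 and 11.4 at 48 h, against 6.87 and 7.23 in the controls of the larger series, and rose by 4.66 ± 0.54 (adjusted p = 0.00381). At 12 and 15 h the mean of the liver list was between −0.23 and −0.09. Skeletal muscle markers stood at 1.75 at 4 h and between −1.10 and 0.95 on the later arrays, with 0 of 14 past the threshold at any time. In a fit of the 4 h and control arrays alone 12 of 14 passed at 4 h, and without either 48 h array 2 did. Acta1, skeletal muscle actin, was 11.4 at 4 h, against 9.38 and 9.31 in the controls of the larger series. Ckm, muscle creatine kinase, was 10.6 at 4 h, against 8.86 and 8.64 in the same controls. In the lists for osteoclasts (12 genes), cartilage (15), marrow stroma (10) and endothelium (10), 0 passed at any time. Their medians over the 5 times lay between −0.05 and 0.37, −0.09 and 0.09, −0.29 and 0.08, and −0.18 and 0.13. The part of these tissues in the values of Fgf23 and the other 6 genes was not tested.

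Each of the 2 bone cell lists held 12 measured genes, out of 19937 ranked, so absence from both says little about a gene. The genes whose levels followed Fgf23 most closely were on neither. By Pearson's r over the 10 arrays of the larger series, out of 19937 genes and with predicted genes and small RNA genes left out, they were Tbrg4 (r = 0.98), Tas2r143 (0.96), Lss (0.96), Rrp1b (0.94), Slc19a1 (0.93) and Plcb1 (0.93). Tbrg4 encodes a mitochondrial RNA regulator, Tas2r143 a bitter taste receptor, Lss lanosterol synthase of cholesterol synthesis, Rrp1b a nucleolar protein, Slc19a1 the reduced folate carrier and Plcb1 a phospholipase C. By Spearman's rho over the same arrays these 6 had values of 0.84 to 0.98, and after removal of the series term over 13 arrays r was 0.82 to 0.93. Among the same 19937 genes the other 6 members ranked between 7749 (Fam20c) and 19109 (Sost).

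These 6 genes were picked for following Fgf23, so their differences from control are a description with no test. For the mean of 9, 12 and 15 h the fitted differences lay between 0.12 ± 0.06 for Plcb1 and 0.40 ± 0.15 for Tas2r143, smaller than that of Fgf23, and Slc19a1 stood at 0.40 ± 0.07. On the larger series Slc19a1 lay between 8.64 and 8.82 on the 8 later arrays, all above both controls, which had 8.41 and 8.18. Tas2r143 and Plcb1 each had a single value on all 3 arrays of the smaller series, so their likeness to Fgf23 there could not be seen.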

How the data were processed

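RNA of 13 bone marrow samples was measured on 1-colour Affymetrix Mouse Gene 1.0 ST arrays. The deposited values are log2 levels per probe set. The submitters' processing notes name RMA; its version and which arrays were normalized together are not given in the sources used here. Scanner files were not used here. Groups follow the time in the labels; replicate numbers follow sample order and pair nothing. Of 35557 probe sets, 21789 had 1 gene symbol, 1621 several and 12147 none listed; the probe set with the highest mean stood for each of 19938 genes.

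From these values limma 3.58.1 (R 4.3.3) was fitted with 6 groups and a term for the series of title numbers (6 residual and 4.62 prior degrees of freedom), with Benjamini-Hochberg adjusted p under 0.05 as threshold. The fit was tested on simulated data. Upstream sequences are RefSeq's, GRCm38.p6, and matched all 7 genes. Figures used matplotlib 3.10.9 in Python 3.11.15.

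The genes, the 15 lists and the tests were chosen with earlier results of these data known. Genes named beside the 7 were list members past the threshold (at most 4 per list and comparison), the 6 closest to Fgf23, and markers of other tissues; not all are printed. Alternatives changed the series term, arrays, filter, probe set, normalization, variance model and weights, and left out each array. The number of arrays limits the precision.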

Additional observations from a re-analysis of the deposited data

How the results depend on the processing

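Leaving out control replicate 1, the higher of the 2 controls of the larger series in all 7 genes, changed most. From 2 controls it cannot be told whether replicate 1 was high or replicate 2 low. Without control replicate 2, 0 of the other 6 genes passed at 4, 12 or 15 h, with Galnt3 at 0.22 and Fam20c at 0.35 at 4 h. Over fits without 1 array, the number past the threshold among the 6 varied, and was highest without control replicate 1. It ran from 0 to 3 at 4 h, 0 to 1 at 12 h and 0 to 3 at 15 h. Those 3 at 4 h were Galnt3 (0.63, limma adjusted p = 0.0344), Fam20c and Dmp1, and those at 15 h Fam20c, Dmp1 and Phex. It was 1 at 4 h and 1 at 15 h (Dmp1) with the series as a random block, and 3 at 4 h with array weights (Fam20c 0.56, Dmp1 1.00, Sost −0.22; limma adjusted p = 0.0158, 0.0410 and 0.0482). The numbers of all genes passing in these fits are not given singly, so nothing is read from the counts. Fgf23 at 48 h ranged from 0.95 to 1.72 without 1 array, and 48 h against the mean of 9, 12 and 15 h from −0.45 to 0.32. Fgf23 against control was above 0 under all alternatives run, from 1.17 to 1.56 at 4 h, 1.37 to 1.95 at 9 h, 0.73 to 1.28 at 12 h and 1.27 to 1.65 at 15 h.

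Of 988 values of the other 6 genes under the alternatives other than that within the smaller series, 40 turned sign, 15 of them without the series term and 19 without 1 array; the cause was not tested. Without the series term these were Galnt3 (0.22 at 9 h, −0.082 at 12 h, −0.15 at 15 h, −0.00091 for the mean of 9, 12 and 15 h), Fam20c (0.070 at 9 h, −0.046 at 12 h, −0.30 at 48 h), Mepe (0.12, −0.11 and −0.16 at 9, 12 and 15 h, −0.052 for the mean), Sost (0.23 at 9 h), Dmp1 (−0.13 at 12 h) and Phex (−0.051 at 12 h, −0.074 for the mean). With array weights they were Galnt3 at 9 h (0.0040) and Dmp1 at 48 h (0.012). In the larger series alone they were Fam20c at 48 h (−0.019, and −0.019 with the compared groups only), Phex (−0.42) and Mepe (−0.018) for the mean.

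Without 1 array Galnt3 ranged from −0.15 to 0.10 at 9 h, −0.031 to 0.39 at 12 h, −0.095 to 0.32 at 15 h and −0.092 to 0.27 for the mean. Mepe ranged from −0.033 to 0.20 at 12 h, −0.015 to 0.083 at 15 h and −0.025 to 0.054 for the mean. Dmp1 at 48 h ranged from −0.20 to 0.13, Fam20c at 48 h from −0.14 to 0.22, and Phex for the mean from −0.42 to 0.54.

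Over all genes the number past the threshold was 397 at 4 h, 19 at 9 h, 21 at 12 h, 51 at 15 h and 75 at 48 h, and it was 157 for the mean of 9, 12 and 15 h and 195 for 48 h against that mean. Without 1 array it ranged from 293 to 1359, 5 to 75, 6 to 414, 6 to 505 and 31 to 104 at the 5 times, 31 to 340 for the mean and 32 to 502 for 48 h against it. Under the other settings it ranged from 44 to 1852, 3 to 32, 2 to 112, 5 to 81 and 11 to 143 at the 5 times, 8 to 258 for the mean and 13 to 462 for 48 h against it. Over the 15 lists and these alternatives 75 list counts past the threshold moved by over 1.5 times or away from 0. Small intestine genes at 4 h numbered 3, in place of 11, with dim genes left out. The median of the osteoblast list at 12 h ranged from −0.16 to 0.58. The 9 h comparison within the smaller series was added after seeing the data. No paired analysis was possible because the labels give no replicate numbers that groups share. Groups of 1 to 3 arrays limit the precision, and without detection calls nothing can be said of transcripts near background.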
